A study of Mus musculus with 8 samples.

Results

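The Iroquois gene clusters are a pair of chromosomal clusters that each hold 3 homeobox genes: Irx1, Irx2 and Irx4 on mouse chromosome 13, and Irx3, Irx5 and Irx6 on chromosome 8. Their members here are the H3K27me3-enriched regions that overlapped an Irx gene body widened by 5 kb on each side, or that lay between the outer genes of a cluster. The rule found 31 of the 13585 regions in the table, 6 in the Irx1-Irx2-Irx4 cluster and 25 in the Irx3-Irx5-Irx6 cluster. Coordinates are those of GRCm38, and regions are numbered within each cluster by position.

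H3K27me3 was measured by chromatin immunoprecipitation and sequencing (ChIP-seq) in female neural stem cells (NSCs) of the C57BL/6J strain, derived from the cortex of E14.5 embryos and kept for under 10 passages. The series holds 8 samples in 4 groups: 3 ChIP libraries of Smchd1GFP+/+ cells (WT), 3 of Smchd1GFPMommeD43/MommeD43 cells (MommeD43), and 1 whole cell extract (WCE) library for each genotype. Smchd1 encodes a chromatin protein needed for X inactivation, and MommeD43 changes a single amino acid in it. Both genotypes carry a GFP tag on the endogenous protein, so WT means untouched at the MommeD43 position and not untagged, and the MommeD43 change was made by genome editing on that tagged background. Each of the 3 ChIP libraries was made from its own cell line. The table gives 1 value per genotype and region, the authors' mean of log2 normalized read counts, so no spread between cell lines is available and no difference below has a test. A ChIP of this mark does not measure expression. Of 7 genes that NSCs of the cortex use, the starts of Sox2, Vim, Fabp7 and Slc1a3 lay outside every enriched region, and the other 3 starts (Nes, Hes5 and Pax6) lay inside one.

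Irx genes encode transcription factors of the TALE class, homeodomain proteins with an extra loop of amino acids between helices. They pattern the neural tube, heart, limb and retina. The clusters arose by duplication, so that Irx1 and Irx3, Irx2 and Irx5, and Irx4 and Irx6 are paired as paralogues. H3K27me3 is placed by Polycomb repressive complex 2, which in many cells covers developmental regulators that are not in use, often from CpG-rich DNA that carries no methylation.

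The regions over the Irx genes were set apart from the rest of the clusters by CpG-rich DNA. In windows of 500 bases, with a GC content of at least 55% and an observed-to-expected CpG ratio of at least 0.65 called CpG-rich, 29 of 504 windows (5.75%) passed in the 6 gene regions and 2 of 902 (0.22%) in the 25 regions between genes, against 1.96% of the windows in autosomal regions. All 6 gene regions held such a window, but only 1 of the 25 others did, region 20 of the Irx3-Irx5-Irx6 cluster. Autosomal regions held a CpG-rich window in 31.8% of cases. The stretches are printed to show what such DNA looked like: the bases directly before the starts of Irx2 and Irx4, and a part of the CpG-rich stretch in region 20, which overlapped no annotated exon and began 5163 bp from the start of the non-coding gene Gm45336. The bases are from RefSeq, assembly GRCm38.p6, read 5′ to 3′ on the plus strand, and capitals mark each CpG.
Irx2, chr13:72628570-72628819: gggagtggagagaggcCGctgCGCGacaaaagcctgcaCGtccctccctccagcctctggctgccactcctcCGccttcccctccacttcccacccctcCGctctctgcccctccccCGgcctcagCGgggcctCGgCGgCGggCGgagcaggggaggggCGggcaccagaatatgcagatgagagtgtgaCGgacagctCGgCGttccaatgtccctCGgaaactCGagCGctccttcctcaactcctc
Irx4, chr13:73260247-73260478: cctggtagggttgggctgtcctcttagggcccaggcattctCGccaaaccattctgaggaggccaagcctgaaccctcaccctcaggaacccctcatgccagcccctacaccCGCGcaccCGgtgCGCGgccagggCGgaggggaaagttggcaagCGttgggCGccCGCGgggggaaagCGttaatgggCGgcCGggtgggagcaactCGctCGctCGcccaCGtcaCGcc
Region 20, chr8:92460305-92460604: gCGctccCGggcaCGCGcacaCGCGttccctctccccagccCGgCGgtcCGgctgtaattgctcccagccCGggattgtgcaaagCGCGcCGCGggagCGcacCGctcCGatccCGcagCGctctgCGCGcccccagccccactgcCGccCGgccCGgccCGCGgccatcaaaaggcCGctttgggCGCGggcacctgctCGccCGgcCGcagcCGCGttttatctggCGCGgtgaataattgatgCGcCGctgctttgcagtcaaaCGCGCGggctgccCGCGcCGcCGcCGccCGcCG
The Irx2 stretch of 250 bases held 19 CpG, and the Irx4 stretch of 232 bases also held 19. The 300 bases of region 20 held 48, with a GC content of 74.7%. Over all 32851 promoters in the same source, counted in the 250 bases before the start, the median was 6 CpG. Irx2 had more than 80.3% of these promoters and Irx4, with 22 in the whole 250 bases, more than 85.2%. Of the 6 Irx genes 3 were matched there, and the promoter given for Irx3 lay inside the gene as annotated here and is not described.

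Every Irx gene had a single region, which covered the whole gene and extended well past both ends. The gene bodies are short, from 3543 bp for Irx3 to 18662 bp for Irx5, and the regions were between 2.99 times (Irx5) and 18.6 times (Irx3) as long. The region of Irx3 extended 43783 bp past the start of the gene and 18724 bp past its end. The least extension before a start was 8678 bp, at Irx4. These lengths and extensions include the 2.5 kb added on each side of a peak and the merging of peaks within 1 kb.

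**Figure D1:**
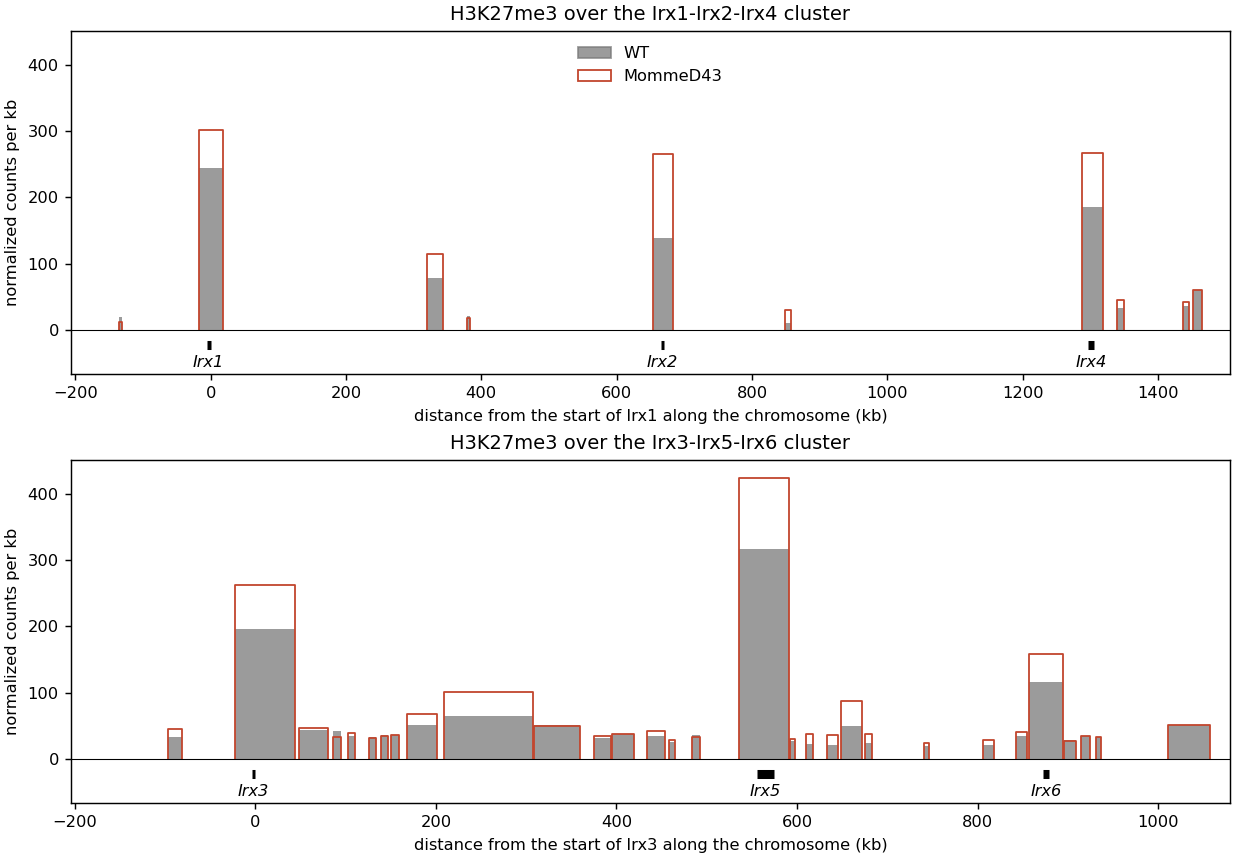
H3K27me3 density along the clusters. Each bar is a region, placed by its distance in kb from the start of Irx1 or Irx3, with a height in normalized counts per kb for WT and MommeD43. The 6 regions over Irx genes stand above the others in both genotypes, from 116 to 317 per kb in WT, against 10.8 to 78.4 per kb between the genes.

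In both genotypes, the gene regions were the most densely marked parts of the clusters. Density, the normalized count per kb of region, ranged between the genes from 10.8 to 78.4 in WT (median 35.5) and up to 115 in MommeD43 (median 37.4). The median autosomal region had 36.0 per kb in WT and 37.0 in MommeD43. The regions between Irx genes thus mostly lay at the density of a usual region and the gene regions well above it. Each region includes the 2.5 kb added on both sides of its peaks, which weighs most on the density of short regions. The regions between genes had a median length of 9650 bp, and the gene regions were at least 28400 bp long. The part of length in this contrast was not tested. By the mean density of both genotypes, the region of Irx5 ranked 24 among all 13585 regions, that of Irx1 ranked 85, and the lowest, that of Irx6, ranked 330.

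The clusters differed in how the mark was spread. The Irx1-Irx2-Irx4 cluster spanned 1312 kb, of which 8.91% lay in regions, and the Irx3-Irx5-Irx6 cluster spanned 882 kb, of which 62.2% did. The gene regions held 89.9% of the normalized counts of the chromosome 13 cluster in WT and 89.6% in MommeD43, on 72.0% of its covered length. On chromosome 8 they held 64.4% and 65.3%, on 27.4% of the covered length. The gaps between genes were 665 kb from Irx1 to Irx2 and 626 kb from Irx2 to Irx4, and were smaller on chromosome 8, at 556 kb from Irx3 to Irx5 and 298 kb from Irx5 to Irx6. The share in gene regions moved by under 1 percentage point between the genotypes in either cluster.

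Comparing the genotypes asks whether the MommeD43 protein alters the mark at these loci. All 6 gene regions had a higher value in MommeD43, by 0.30 to 0.93 on the log2 scale (median 0.44). So did 60.2% of all regions, and 1811 of the 2643 autosomal regions of 20 kb or more. Setting the total over all regions equal in both genotypes lowers every difference by 0.24, and 37.1% of all regions were then higher. All 6 gene regions stayed higher, Irx1 least (0.06). With the abundance trend removed their median was 0.14 and the difference of Irx1 was 0.00039, within its counting error. With the reads recovered from the values, the smallest counting error of each difference could be computed, and a difference whose 95% interval from that error leaves out 0 is called outside the 95% counting interval. This covers counting error only, not the spread between cell lines. All 6 were outside that interval on the higher side, as were 18 of all 31 Irx regions, against 40.9% of all regions and 37.9% of autosomal ones. Long regions hold more reads and leave this interval more easily, and of the 2643 autosomal regions of 20 kb or more, a length that all 6 gene regions passed, 59.6% were outside it on the higher side. In contrast, 1 Irx region was outside it on the lower side, against 23.4% of all regions, and 12 were within it. With equal totals, 14 Irx regions were outside it on the higher side, against 22.0% of all regions, and 9 on the lower side, against 43.5%. Since ChIP-seq gives relative values, and the cells were pooled, a change in the share of cells that carry the mark and a change in its amount per cell cannot be told apart.

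Irx1, needed in lung and kidney development among other organs, had its region at chr13:71946351-71982550. Its value was 13.11 in WT and 13.41 in MommeD43, a difference of 0.30 (counting error 0.021), or 244 against 301 normalized counts per kb. This was the smallest difference among the 6 genes.

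Irx2, which acts in hindbrain patterning, lay in chr13:72618201-72646600. The value was 11.95 in WT and 12.88 in MommeD43, so that the difference was 0.93 (counting error 0.029), and the density was 139 and 265 per kb. Irx2 had the lowest density of the chromosome 13 genes in WT and the largest difference of the 6, higher than 97.1% of autosomal regions. The lincRNA Gm20554 starts 256 bp from Irx2 on the other strand, so the region marks both.

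Irx4, a regulator of ventricular identity in the heart, lay in chr13:73251801-73282150. It measured 12.46 in WT and 12.98 in MommeD43, a difference of 0.53 (counting error 0.025), with 185 and 267 per kb.

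Irx3, which acts in neural tube patterning and in the cardiac conduction system, lay in chr8:91779801-91845850 together with its antisense gene Irx3os and the lincRNA Gm36380. Its value was 13.66 in WT and 14.08 in MommeD43, a difference of 0.43 (counting error 0.017), with 196 and 263 per kb.

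Irx5, which sets the repolarization gradient of the heart and acts in retinal bipolar cells, lay in chr8:92337201-92393050. The value was 14.11 in WT and 14.53 in MommeD43, a difference of 0.42 (counting error 0.014), with 317 and 424 per kb. This was the most densely marked Irx gene in both genotypes. The region also held the start of the non-coding gene Crnde, 1505 bp from that of Irx5 on the opposite strand, but not the whole of Crnde.

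Irx6, known for its part in bipolar cells of the retina, lay in chr8:92659251-92696200. It measured 12.06 in WT and 12.51 in MommeD43, which is a difference of 0.45 (counting error 0.029), with 116 and 158 per kb. It was the least densely marked of the 6 in both genotypes and held 1 CpG-rich window, whereas the other gene regions held 4 to 8.

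The order of the genes by density changed in its middle. In WT it was Irx5, Irx1, Irx3, Irx4, Irx2 and Irx6, and each step was outside the counting interval, the smallest being that from Irx3 to Irx4 (0.077 on the log2 scale, counting error 0.024). In MommeD43 it was Irx5, Irx1, Irx4, Irx2, Irx3 and Irx6, where Irx4 and Irx2 (0.012, counting error 0.022) and Irx2 and Irx3 (0.011, counting error 0.019) did not differ beyond counting error. The top and bottom of the order were 2.73-fold apart in WT and 2.68-fold apart in MommeD43.

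Paralogues were then set against each other. Irx2 had 0.44 times the density of Irx5 in WT and 0.63 times in MommeD43, so their differences between genotypes were themselves 0.51 apart on the log2 scale (counting error 0.032). Irx1 had 1.25 times the density of Irx3 in WT and 1.15 times in MommeD43, a gap of -0.12 (counting error 0.027). Irx4 had 1.60 times the density of Irx6 in WT and 1.69 times in MommeD43, a gap of 0.08 (counting error 0.038). The last of these changed sign, to -0.12, once the relation of the difference to GC content was removed, whereas the gap between Irx2 and Irx5 was then 0.46.

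**Figure D2:**
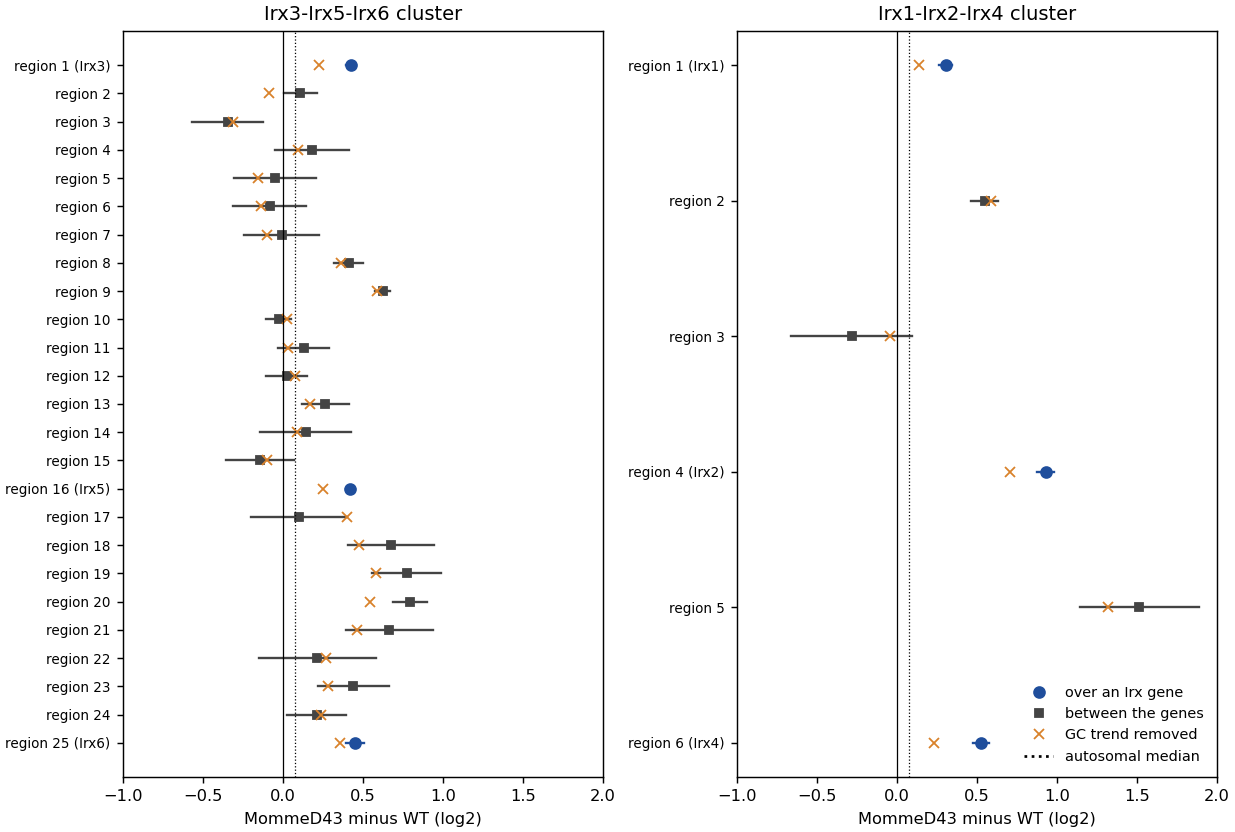
Difference between genotypes for each Irx region. Points give the MommeD43 minus WT value on the log2 scale, in order along each cluster, lines give the 95% counting interval, and crosses give the difference after removal of the GC trend. The 6 gene regions lie above 0 by 0.30 to 0.93, and region 5 of the chromosome 13 cluster is the only point past 1, at 1.52.

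Between Irx1 and Irx2 lay a pair of regions. Region 2, at chr13:72283851-72307750, held no annotated gene and lay 320128 bp from the start of Irx1. Its value was 10.87 in WT and 11.42 in MommeD43, a difference of 0.55 (counting error 0.043), and its density of 78.4 per kb in WT was the highest of any Irx region that covers no Irx gene. Region 3, at chr13:72342201-72347650, measured 6.91 and 6.62, and its difference of -0.28 was within the counting interval (counting error 0.19). It was -0.53 and outside the interval with equal totals, and -0.047 with the GC trend removed.

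Region 5, between Irx2 and Irx4 at chr13:72813201-72820750, had the largest difference of all Irx regions. It held the start of the lincRNA D730050B12Rik and lay 184381 bp from the start of Irx2. The value was 6.35 in WT and 7.86 in MommeD43, a difference of 1.52 (counting error 0.19), or 10.8 against 30.8 normalized counts per kb. Recovered reads per library were 24.9 in WT and 88.4 in MommeD43, the former being the lowest of all Irx regions. The regions come from peaks of both genotypes, so one this low in WT may have entered through MommeD43. The part of this selection in the difference was not tested. This was the only Irx region of 31 past 1 on the log2 scale, that is past a 2-fold difference, against 6.09% of all regions and 2.28% of autosomal regions on the higher side. No Irx region was lower by as much, against 3.03% of all regions.

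The 14 regions between Irx3 and Irx5 had a median difference of 0.07. As deposited, 8 were higher in MommeD43 and 6 lower, when 60.2% of all regions were higher. With equal totals the median was -0.18 and 3 were higher, against 37.1% of all regions. Of the 14, 4 were outside the counting interval on the higher side as deposited and 1 on the lower. These shares were 40.9% and 23.4% of all regions. With equal totals 2 were outside it on the higher side and 8 on the lower, against 22.0% and 43.5%. Their summed density was 49.3 per kb in WT and 62.0 in MommeD43. A pair of neighbouring regions differed most. Region 9, at chr8:92011551-92109550, was the longest Irx region with 98000 bp, lay 209484 bp from the start of Irx3 and held the lincRNA Gm28516. It measured 12.65 in WT and 13.28 in MommeD43, a difference of 0.62 (counting error 0.023), with 65.8 and 101 normalized counts per kb and no CpG-rich window among 196. Region 8, at chr8:91970301-92003650, held the starts of the lincRNAs Gm36670 and Gm36843. It measured 10.75 in WT and 11.16 in MommeD43, a difference of 0.41. Directly after the pair, region 10, of 51500 bp, measured 11.37 in WT and 11.35 in MommeD43, a difference of -0.03 that was within the counting interval, but -0.27 and outside it with equal totals.

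The other 12 regions between Irx3 and Irx5 split as deposited into 6 higher and 6 lower, when 60.2% of all regions were higher. With equal totals they split into 1 higher and 11 lower, when 37.1% of all regions were higher. The pair was left out for its differences, so the values of the rest are a description only. Regions 2 (0.11, but -0.13 with equal totals) and 13 (0.26, but 0.023 and within the interval with equal totals) were outside the counting interval on the higher side. Region 3, at chr8:91888251-91896550, measured 8.46 in WT and 8.11 in MommeD43, and its difference of -0.35 (counting error 0.11) was the only one of the 31 outside the interval on the lower side as deposited.

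All 8 regions between Irx5 and Irx6 were higher in MommeD43, by 0.10 to 0.79 (median 0.55). Of these, 6 were outside the counting interval on that side. Over all regions, X chromosome included, these shares were 60.2% and 40.9%, and over autosomal regions 57.7% and 37.9%. With equal totals, 5 of the 8 stayed higher, against 37.1% of all regions. The summed density of the 8 was 32.1 per kb in WT and 48.9 in MommeD43. The largest differences were in 4 neighbouring regions, numbers 18 to 21, whose GC content was between 48.2% and 49.4%. Region 20, at chr8:92451201-92474050, holds the start of the lincRNA Gm45336 and the CpG-rich stretch printed above. It measured 10.17 in WT and 10.97 in MommeD43, a difference of 0.79 (counting error 0.054), with 50.5 and 87.6 normalized counts per kb. Region 19 measured 8.08 and 8.85 (difference 0.77), region 18 measured 7.53 and 8.21 (0.68), and region 21 measured 7.46 and 8.12 (0.66). Together the 4 had a summed density of 35.5 per kb in WT and 60.4 in MommeD43. On the Irx6 side of this run, regions 22, 23 and 24 differed by 0.21, 0.44 and 0.21, and region 17, next to Irx5, differed by 0.10. Regions 17 and 22 were within the counting interval, and with equal totals regions 17, 22 and 24 were below 0, at -0.14, -0.027 and -0.032. Region 23 was then 0.20 and within the interval, and regions 18 to 21 stayed outside it.

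Over all 31 Irx regions, the median difference was 0.26, against 0.11 for all regions and 0.08 for autosomal regions, and 24 were higher in MommeD43, or 16 with equal totals, when 37.1% of all regions were. The median was 0.54 for the chromosome 13 cluster, where 5 of 6 regions were higher, and 0.21 for the chromosome 8 cluster, where 19 of 25 were. With equal totals, 5 of 6 stayed higher on chromosome 13, and on chromosome 8 the median was -0.032 and 11 of 25 were higher. In MommeD43, 60.2% of all regions and 57.7% of autosomal regions were higher. Summed density, per kb covered by regions and not per kb of the span, was 155 and 225 in the chromosome 13 cluster and 93.4 and 124 in the chromosome 8 cluster. Long regions account for much of the counts. The 13 Irx regions of 20 kb or more had a median of 0.43, against 0.17 for the 2643 autosomal regions that long, and the 18 shorter ones a median of 0.16, against 0.05 for 9064 shorter autosomal regions.

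Differences in this table moved with the GC content of the region, on the autosomes (Spearman correlation 0.58, a description across regions that share libraries) and among the 31 Irx regions (0.66). All 6 gene regions lay at a GC content where the median difference of like autosomal regions was above 0. After the running median of autosomal regions of like GC content was subtracted, all 6 gene regions were still higher in MommeD43, by 0.13 for Irx1, 0.22 for Irx3, 0.23 for Irx4, 0.25 for Irx5, 0.35 for Irx6 and 0.71 for Irx2. Their median was then 0.24, and 24 of the 31 Irx regions were higher, against 55.9% of all regions and 49.9% of autosomal ones. Region 5 of the chromosome 13 cluster then differed by 1.32. The part of GC content in these differences was not tested.

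**Figure D3:**
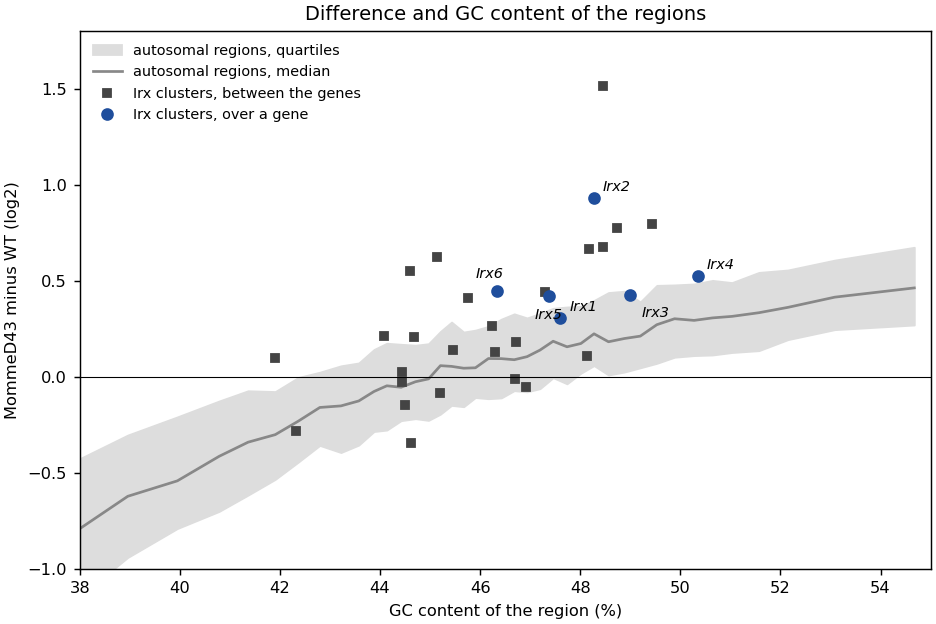
Difference between genotypes against GC content. The x axis is the GC content of a region in percent and the y axis the MommeD43 minus WT value on the log2 scale, with the band and line giving quartiles and median of autosomal regions. Irx2, at 48.3% GC and 0.93, lies above the band, whereas Irx3, at 49.0% and 0.43, lies close to its upper edge.

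H3K27me3 density was also set against CpG content. The Spearman correlation of CpG per kb with density over the 31 regions was 0.47 in WT and 0.59 in MommeD43, but within the chromosome 8 cluster (25 regions) it was 0.17 and 0.34, and over autosomal regions 0.11 and 0.35. The 6 gene regions had 14.1 (Irx6) to 23.3 (Irx2) CpG per kb, with Irx6 the lowest in both CpG content and density.

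Outside the clusters, 21 of 39 regions within 1 Mb were higher in MommeD43, 8 of them outside the counting interval, and 13 were outside it on the lower side. Over all regions, these shares were 60.2%, 40.9% and 23.4%, and over autosomal regions 57.7%, 37.9% and 25.1%. With equal totals 5 of the 39 were higher, against 37.1% of all regions. Those before the chromosome 13 cluster had a summed density of 38.1 per kb in WT and 35.5 in MommeD43, and those after it 56.0 and 56.4. Before the chromosome 8 cluster the densities were 47.6 and 47.3, and after it 45.6 and 41.5. The 4 median differences of these flanks lay between -0.26 and 0.12. After removal of the GC trend they were all below 0, between -0.16 and -0.07.

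The regions just outside the rule were mixed. The nearest one after Irx4, 28343 bp past the widened gene, measured 8.56 in WT and 8.98 in MommeD43, a difference of 0.41. The nearest one after Irx6, 11845 bp away, measured 8.57 and 8.45, a difference of -0.12. On the outer sides of Irx1 and Irx3 the nearest regions, 119921 and 72925 bp away, differed by -0.77 and 0.43. Among neighbouring genes, the region over Adamts16, which encodes a secreted protease, differed by 0.71, the 2 over Slc6a2, which encodes the noradrenaline transporter, by 0.45 and 0.0095, that over Slc6a3, which encodes the dopamine transporter, by 0.22, and those over Mmp2 and Lpcat2, Nkd2, and Slc12a7 by 0.013, 0.014 and 0.010. Fto, whose introns hold distal elements that contact Irx3, had 1 region with a difference of 0.15 that was within the counting interval.

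Other homeobox clusters, of shorter span, were covered without a gap. The Dlx, Six2-Six3 and Hox clusters each lay in 1 region that covered their whole span. Their densities in WT were from 183 per kb (Dlx3-Dlx4) to 575 per kb (Hoxa), against 116 (Irx6) to 317 (Irx5) for the Irx gene regions. Log2 ratios of summed counts were 0.26 for Hoxd, 0.31 for Dlx5-Dlx6, 0.32 for Hoxc, 0.38 for Hoxa, 0.39 for Dlx3-Dlx4, 0.53 for Dlx1-Dlx2, 0.54 for Hoxb and 0.57 for Six2-Six3. With 0.46, the 6 Irx gene regions lay inside this range, and so did the whole Irx clusters, with 0.53 on chromosome 13 and 0.41 on chromosome 8.

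**Figure D4:**
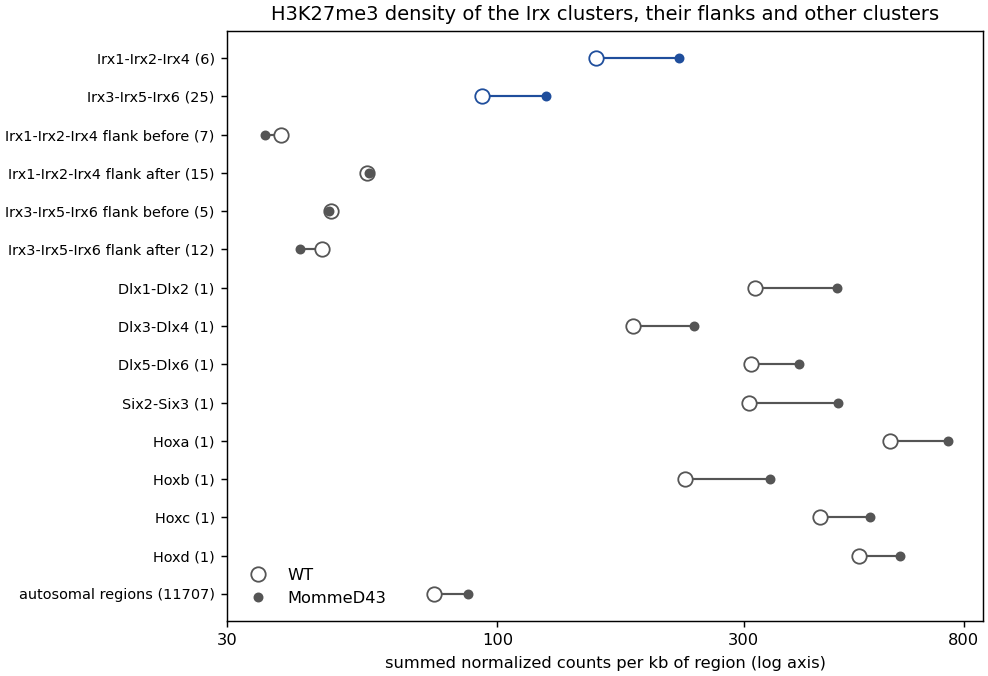
Summed H3K27me3 density of the Irx clusters, their flanks and other homeobox clusters. The x axis is normalized counts per kb covered by regions, on a log scale, open points are WT and filled points MommeD43. The Irx1-Irx2-Irx4 cluster had 155 per kb in WT and 225 in MommeD43, the Irx3-Irx5-Irx6 cluster had 93.4 and 124, and the flanks within 1 Mb lay between 35.5 and 56.4 in both genotypes.

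Of 11 other TALE homeobox genes, cofactors of Hox proteins such as Meis and Pbx and the repressors Tgif1 and Tgif2, 8 had a region. Their 11 regions were all higher in MommeD43, 10 of them outside the counting interval, with a median difference of 0.53. Over all regions, 60.2% were higher and 40.9% were outside the interval on that side, and over autosomal regions 57.7% and 37.9%. With equal totals 7 of the 11 stayed higher, against 37.1% of all regions, and 10 did with the GC trend removed, against 55.9%. The highest were both at Meis1. The region that did not hold its start measured 10.48 in WT and 12.09 in MommeD43 (difference 1.61), and the one that did measured 6.83 and 7.97 (1.14). The lowest were 0.10 at Mkx, which acts in tendon, and 0.15 at Pbx3, where the value was 1.16 with the GC trend removed. Unlike the 6 Irx genes, these genes had their starts covered in 6 of 11 cases. The covering regions had a summed density of 71.5 per kb in WT against 210.0 for the Irx gene regions. The covering regions were also shorter, with a median length of 16850 bp against 36575 bp.

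By both pooled values, the regions most like that of Irx1 among 812 autosomal regions of like length with a protein-coding start were those of Gdf6 (13.06 in WT and 13.46 in MommeD43), Foxd4 (13.17 and 13.33) and Cyp26b1 (12.97 and 13.45). Those most like the region of Irx5 among 552 were the region of Foxd2 and Foxe3 (14.18 and 14.48), that of Npm1 and Tlx3 (14.18 and 14.61) and a region on chromosome 7 with Slc17a7 and Tead2 among its genes (13.98 and 14.61). Likeness is the distance over 2 pooled values, which was at most 0.15 on the log2 scale.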

How the data were processed

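The authors trimmed the reads with Trim Galore 0.4.4, aligned them with Bowtie2 2.3.4.1 to GRCm38.p6 and counted them in SeqMonk after extension by 150 bp. They called peaks against WCE, took the peaks of both genotypes, widened each by 2.5 kb on both sides and merged those within 1 kb. A region can thus have entered through the genotype where it is higher. The labels name micrococcal nuclease digestion and the study's methods name shearing, so the fragmentation is uncertain. The deposited values are log2 read counts after the authors' normalization for library size, as the authors' mean over 3 libraries in 2 columns, not divided by length and without WCE subtraction. Single libraries and WCE were not analysed here.

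The members and lists were chosen with earlier results of these data known. The difference is the MommeD43 minus the WT value. Since each column holds pooled values, no model was fitted and no p-value is given. Reads were recovered because the antilog of 3 times a value is a whole multiple of a constant: 1138 of 1139 WT and 681 of 684 MommeD43 products under 30000 were whole within 0.1, with 1 read worth 3.27 and 2.63 normalized counts. Irx regions held 24.9 to 5408 reads per library in WT and 37.4 to 8985 in MommeD43, and their Poisson counting errors ran from 0.014 to 0.19 on the log2 scale, assuming that reads were spread evenly over 3 libraries. PCR duplicates are not accounted for, so intervals cover counting error only. Gene positions are from GENCODE M21. The GC and abundance trends were running medians in 40 bins. The scripts used pandas 2.3.3 and numpy 2.4.6 for the tables, scipy 1.17.1, and matplotlib 3.10.9 for plots, under Python 3.11.15, and were tested on simulated data. All 6 Irx genes and 31 regions could be named. Neighbouring genes, the other TALE genes with the 2 highest and 2 lowest differences, and the 3 regions most like the region of highest value in each cluster (length within 1.5 times) were named by rule, and the NSC genes were chosen after the values were seen. Some homeobox genes among those planned for comparison are not reported here.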

Additional observations from a re-analysis of the deposited data

How the results depend on the processing

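No paired analysis was possible because the 2 value columns are pooled over libraries and carry no replicate number, and leaving out each replicate could not be run for the same reason. Setting the total of all regions equal in both genotypes lowered every difference by 0.24, which is larger than the scaling to the autosomal median (0.08). The median over the 31 Irx regions, 0.26 as deposited, was 0.023 with equal totals, 0.12 with the abundance trend removed and 0.44 over gene bodies alone, and 0.19 to 0.30 under the other alternatives. Gene bodies alone gave 6 regions and 0 past 1. Region 2 of the Irx3-Irx5-Irx6 cluster reversed to -0.13 with equal totals, -0.045 with the abundance trend removed and -0.089 with the GC trend removed, and region 24 to -0.032 with equal totals. The causes were not tested. Of 155 values of single regions under 5 alternatives, 13 changed sign, of which 4 had been outside the counting interval as deposited. Apart from these 4, 103 moved by less than the counting interval and 48 by more. With equal totals, 16 of 31 Irx regions were higher in MommeD43, against 24 as deposited, where the shares of all regions were 37.1% and 60.2%. The 6 gene regions were higher under every one of these 5 alternatives, though that of Irx1, the smallest, was 0.06 with equal totals and 0.00039 with the abundance trend removed. Without values of single libraries, none of these differences can be set against the spread between cell lines.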

Other observations

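At the far end of the chromosome 8 flank, past 896695 bp from Irx6 widened by 5 kb, 4 neighbouring regions were lower in MommeD43. The run was picked for its values. All 4 were outside the counting interval on the lower side, as were 23.4% of all regions, and 3.03% of all regions were lower by 1 or more. The region at chr8:93582651-93614050 measured 10.63 in WT and 9.44 in MommeD43, a difference of -1.20 (counting error 0.064), and the next, at chr8:93616401-93623950, measured 8.35 and 7.26, a difference of -1.10. The other two differed by -0.69 and -0.64. None of the 4 overlapped a protein-coding gene, and after removal of the GC trend the first still differed by -1.06. This is the opposite direction to the 8 regions between Irx5 and Irx6 as deposited, though with equal totals only 5 of those 8 stayed higher.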
